A study of Arabidopsis thaliana with 12 samples.

Results

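Genes whose transcripts were lower after abscisic acid (ABA) in both wild-type and rop10-1 seedlings of Arabidopsis thaliana were described from 12 Affymetrix ATH1 arrays. ABA is the plant hormone of drought, salt and seed dormancy, and ROP10 is a small GTPase of plants. The set was chosen from the measured values themselves. A probe set entered it when its mean log2(signal + 16) with ABA minus mock was -1 or less in both genotypes, and its mean signal over the 6 mock arrays was 100 or more. That gave 140 of 22810 probe sets, and 11 of them, the genes AT4G21870, AT5G19890, AT1G26250, TBL45, UGT72E1, Prx37, AT5G62360, AT5G63180, EXPA8, BZIP61 and AT5G61590, were left out. Of the remaining 129 probe sets, 62 had a single gene in the platform's probe table and are named here, 3 had several genes, and 64 had none listed there.

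The arrays held 4 groups of 3 biological replicates. Ws mock and Ws ABA were wild type of the Ws accession, and rop10-1 mock and rop10-1 ABA carried the rop10-1 mutation of ROP10. All seedlings had grown for 7 days in shaken liquid medium with 3% sucrose, and each array was made from RNA of whole seedlings. The ABA groups then received 1 µM ABA dissolved in DMSO for 4 hours and the mock groups DMSO alone. The mutant is represented by a single allele, and because whole seedlings were extracted, fewer cells of a type and less RNA per cell cannot be told apart in any value below. The mutated gene itself has no single-gene probe set in the table used and was not analysed here.

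ABA is perceived by soluble PYR/PYL receptors, which then block clade A protein phosphatases and release SnRK2 kinases. These kinases activate bZIP factors that switch on genes of desiccation tolerance, and the same hormone slows the growth of seedlings and their roots.

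Every array had been scaled to one 2% trimmed mean (500.04 to 500.05), and array medians were 180.15 to 203.3. Of the marker genes fixed for seedling tissues, those for light harvesting, LHCB4.1 with LHCB4.2 (2 of 15 listed), summed to 14530 to 19190 on the mock arrays, the root hair genes EXPA7 and EXPA18 (2 of 7) to 209 to 337, and the guard cell gene FMA (1 of 5) to 178 to 231. None of these 5 genes was called for ABA, and none was at 0. No endodermis, xylem or cell division marker had a single-gene probe set among those tested. The 3'/5' log2 signal ratio of the ubiquitin control was 0.82 to 1.104 on the mock arrays and 0.64 to 0.88 on the ABA arrays, while the ranges of the GAPDH and actin ratios overlapped more widely. The part of this ubiquitin difference in the values below was not tested.

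The 129 probe sets had a median ABA difference of -1.31 in Ws and -1.39 in rop10-1 on the log2(signal + 16) scale, against -0.04 and -0.05 over all 15922 tested probe sets. Their median signal under ABA was 35.9% of that in mock. The lowest percentage left was 0.967%, for AT2G43140, and the highest was 49.9%, for AT5G19120. In 18 of the 129 (13.95%) the mean of both differences was -2 or less, against 0.132% of all tested. Of these 18, 6 were named genes and 12 were without a listed gene. On all 6 ABA arrays 34 of the 129 (26.4%) had a signal under 100, 18 of them named, against 3.86% of all tested. All of these values come from the contrast that chose the set and are given as a description.

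Before the low-signal filter 129 probe sets belonged to the set, and 117 passed it. Those that failed it, 10 of them named, include AT2G43140, AT5G60760, AT4G25090, AT5G22555, JKD, AT5G66985 and AT5G53240, so no adjusted p exists for them. In limma 98 of the 117 were called lower in Ws, where 2.49% of all tested probe sets were, and 98 in rop10-1, where 2.51% were. With the replicate number as a block these were 116 and 115, against 7.76% and 7.51%. The 3 ABA arrays lay below the 3 mock arrays for 106 of the 117 in Ws (11.6% of all tested) and for 113 in rop10-1 (15.1%). The limma call was made in both genotypes for 92 (1.53% of all tested), the arrays were apart in both for 104 (5.23%), and all 6 ABA arrays lay below all 6 mock arrays for 93 (3.56%). Because the rule used these contrasts, the counts carry no evidence of their own.

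**Figure D1:**
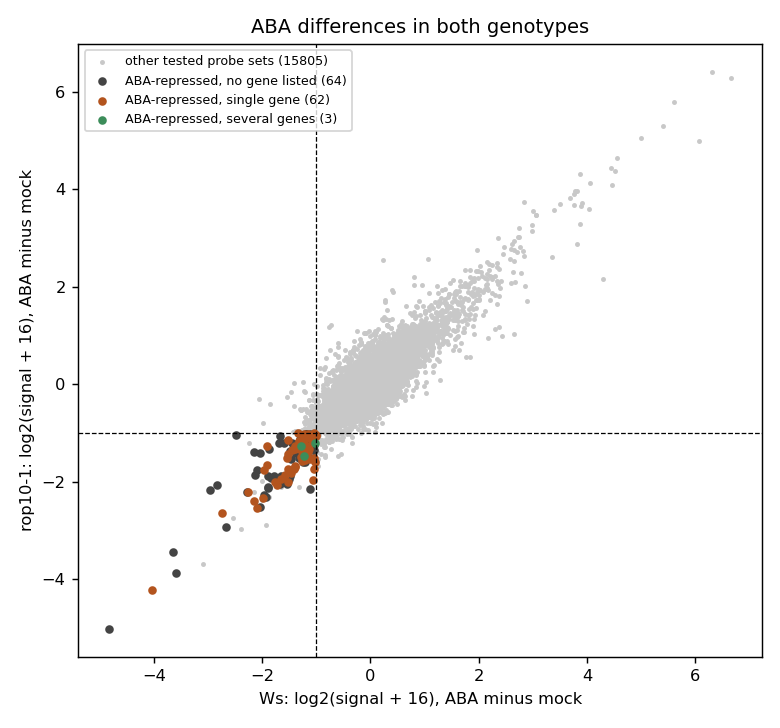
Each point is a probe set, with the ABA minus mock difference of log2(signal + 16) in Ws on the x axis and in rop10-1 on the y axis, as means of 3 against 3 arrays. Coloured points are the 129 ABA-repressed probe sets, grey points all other tested ones (including the 11 genes left out and probe sets under the signal minimum), and dashed lines mark -1; the coloured points run from just past the corner to -4.82 in Ws and -5.02 in rop10-1.

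Probe sets just inside and just outside the limit differed little. AT5G19120, a gene of the aspartyl protease type, was the last inside with -1.01 in Ws and -1.07 in rop10-1, followed by TBL36 (-1.01 and -1.04), GAT1_2.1 (-1.34 and -1.01), TRI (-1.03 and -1.01) and AT2G30600 (-1.04 and -1.02). The first outside were AT2G01900 with -1.34 and -0.9997 and AT3G45160 with -0.9987 and -1.41. AT4G33720 had -0.99 and -1.19, AT1G22570 -0.99 and -1.59, and the sucrose-phosphate synthase gene ATSPS4F -0.98 and -1.39. Inside the limit, TBL36 had 442.5, 349.9 and 337.9 in Ws mock and 182.1, 190.2 and 161.8 in Ws ABA, and 380.1, 252.1 and 280.1 in rop10-1 mock and 154.7, 130.4 and 129.0 in rop10-1 ABA. The signal of TRI was 201.9, 141.2 and 202.4 in Ws mock, 196.4, 216.8 and 189.5 in rop10-1 mock, 78.7, 87.6 and 72.7 in Ws ABA and 115.4, 73.9 and 88.6 in rop10-1 ABA. Both kept mock and ABA arrays apart.

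On Ws mock arrays AT2G30600 had 1392.9, 1289.6 and 1921.5 and on rop10-1 mock arrays 1362.2, 1115.4 and 1296.4, against 876.3, 684.8 and 636.6 in Ws ABA and 668.3, 615.0 and 556.6 in rop10-1 ABA. The signal of GAT1_2.1 was 1865.8, 708.3 and 1501.4 in Ws mock, 1337.0, 1387.2 and 1006.1 in rop10-1 mock, 458.1, 455.2 and 553.1 in Ws ABA and 845.9, 409.9 and 627.2 in rop10-1 ABA. Mock and ABA arrays were apart within each genotype for both. Outside it, AT2G01900 had 145.0, 146.5 and 163.2 in Ws mock and 34.5, 69.8 and 50.3 in Ws ABA, and 123.0, 180.5 and 165.8 in rop10-1 mock and 70.5, 60.8 and 77.5 in rop10-1 ABA. The signal of AT3G45160 was 480.8, 536.4 and 475.2 in Ws mock, 465.1, 573.5 and 507.6 in rop10-1 mock, 227.4, 225.3 and 271.7 in Ws ABA and 184.6, 142.9 and 233.1 in rop10-1 ABA. These also kept the groups apart. For AT1G22570 the values were 374.8, 840.2 and 574.8 in Ws mock and 622.6, 947.2 and 788.0 in rop10-1 mock, against 326.4, 280.6 and 232.4 in Ws ABA and 201.6, 317.5 and 231.8 in rop10-1 ABA. ATSPS4F had 467.5, 429.2 and 380.6 in Ws mock and 228.1, 150.3 and 255.4 in Ws ABA, and 415.3, 134.0 and 258.3 in rop10-1 mock and 99.1, 65.2 and 89.2 in rop10-1 ABA. So did these. The signal of AT4G33720 was 473.7, 84.1 and 70.0 in Ws mock, 577.1, 93.0 and 155.1 in rop10-1 mock, 274.7, 72.8 and 4.7 in Ws ABA and 574.4, 11.8 and 40.7 in rop10-1 ABA. Here the arrays numbered 1 were the highest in all 4 groups, and mock and ABA overlapped in both genotypes.

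Membership also rested on single arrays. Of the 129, 74 stayed in the set whichever of the 12 arrays was left out, 33 of them named. Those that did not stay included genes away from the limit, such as AT5G48430 (-1.42 and -1.74) and ATPMEPCRD (-1.91 and -1.28). Leaving out 1 array gave 121 to 135 probe sets. With a pseudocount of 64 in place of 16 the rule gave 74.

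The named genes were grouped by what their proteins are known to do; the grouping was made with the values in view, and its counts and medians only describe. The plot by role shows both differences for all 62.

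**Figure D2:**
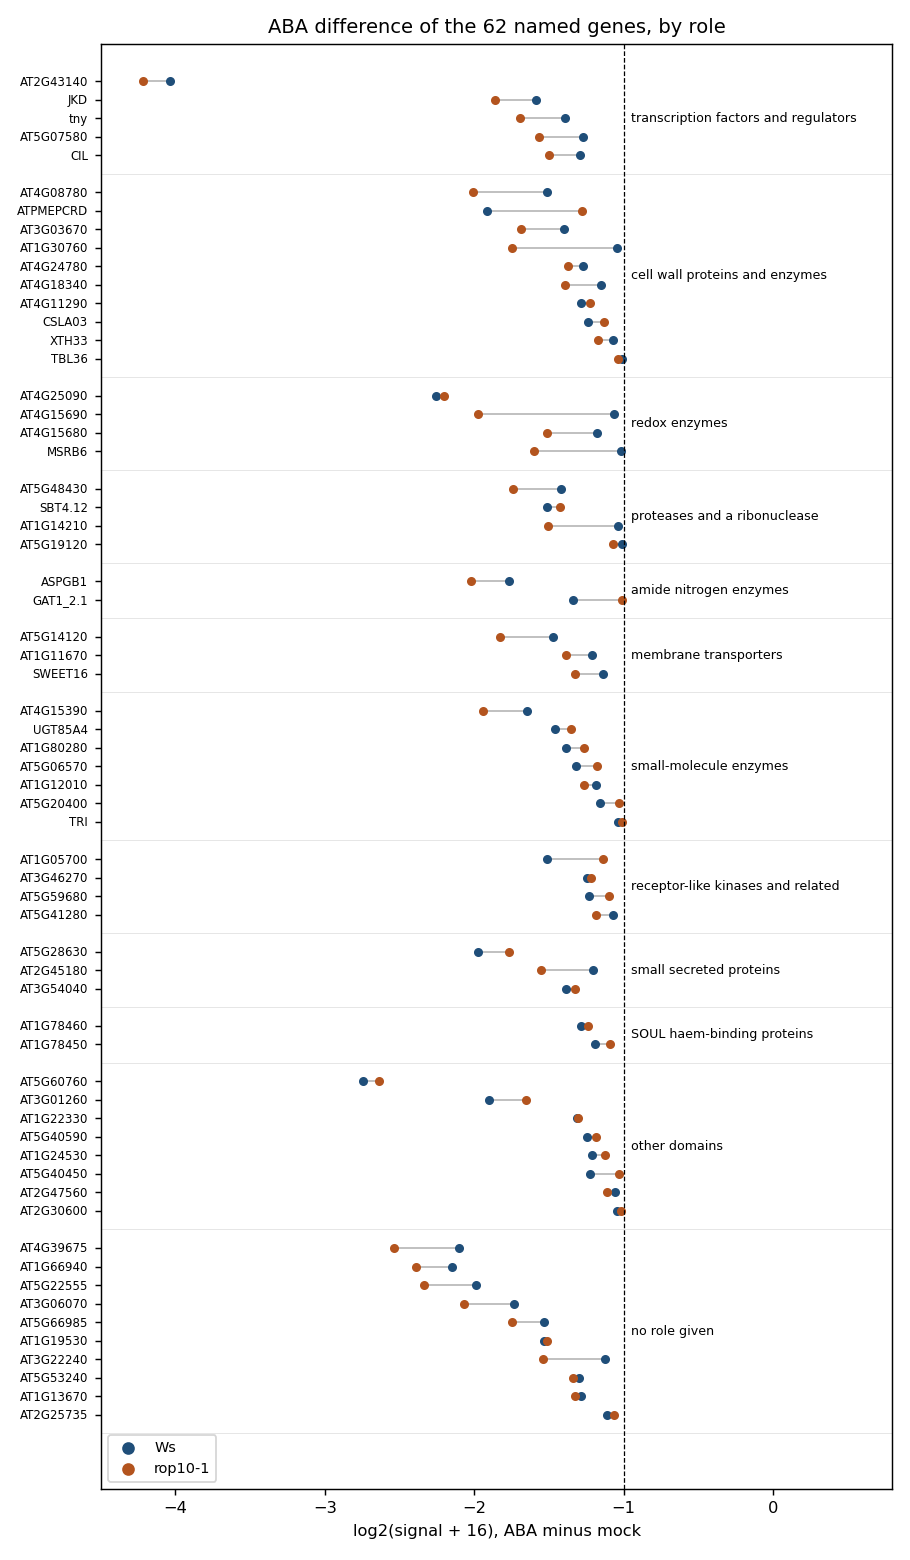
Each line is a named gene, with the ABA minus mock difference of log2(signal + 16) in Ws (blue) and rop10-1 (orange) on the x axis, as means of 3 against 3 arrays; the dashed line marks the limit of -1. The 5 transcription regulators lie at -1.27 or lower in both genotypes, with AT2G43140 far to the left, and most wall genes lie between -1 and -2.

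Among 5 transcription factors and regulators, AT2G43140, a gene of the bHLH transcription factor family, had the lowest difference of all named genes. Its signal was 204.7, 416.0 and 277.3 on Ws mock arrays 1, 2 and 3 and 371.1, 440.0 and 267.1 on rop10-1 mock arrays. With ABA it was 3.2, 3.0 and 1.4 in Ws and 2.1, 3.5 and 5.9 in rop10-1. Thus all 6 ABA arrays lay below 6 and all 6 mock arrays above 200. The differences were -4.04 in Ws and -4.22 in rop10-1, which the pseudocount makes smaller than the ratio of signals. With ABA signals this low the size of that ratio is uncertain.

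JKD (JACKDAW) encodes a zinc finger protein of the BIRD family that helps to pattern the root ground tissue. It had 139.9, 96.3 and 99.0 in Ws mock and 89.8, 163.4 and 98.1 in rop10-1 mock, against 52.0, 23.5 and 11.7 in Ws ABA and 17.8, 31.4 and 12.2 in rop10-1 ABA. The differences were -1.59 and -1.86, with no overlap between mock and ABA arrays. The AP2-type factor gene tny (TINY), which in gain-of-function plants is known for dwarf growth, had 350.2, 206.1 and 533.2 in Ws mock and 121.9, 92.5 and 149.5 in Ws ABA. In rop10-1 it had 375.1, 437.5 and 437.4 in mock and 124.2, 91.6 and 142.0 with ABA. Its differences were -1.39 and -1.69. AT5G07580, an ERF-family gene, had differences of -1.27 and -1.57 and varied little within groups, with 715.9 to 923.4 over the 6 mock arrays and 225.5 to 383.8 over the 6 ABA arrays. The signal of AT5G07580 was 866.7, 923.4 and 812.7 in Ws mock, 821.9, 715.9 and 831.6 in rop10-1 mock, 343.8, 324.9 and 383.8 in Ws ABA and 225.5, 262.1 and 280.5 in rop10-1 ABA. The ABA arrays of rop10-1 all lay below those of Ws. CIL, a gene of the CCT-motif type related to a regulator of chloroplast protein import, had -1.29 and -1.502. CIL had 233.9, 466.1 and 288.4 in Ws mock and 111.4, 147.1 and 104.9 in Ws ABA, and 265.4, 357.6 and 372.0 in rop10-1 mock and 55.0, 177.2 and 115.0 in rop10-1 ABA. Its lowest value, 55.0, was on a rop10-1 ABA array.

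Cell wall proteins and enzymes were 10 genes, with median differences of -1.26 in Ws and -1.32 in rop10-1. Class III peroxidases, which cross-link or loosen wall polymers, were AT4G08780 (-1.52 and -2.01), AT3G03670 (-1.40 and -1.69) and AT4G11290 (-1.29 and -1.22). AT4G08780 had 556.7, 332.3 and 381.5 in Ws mock and 462.5, 480.2 and 441.7 in rop10-1 mock, against 197.6, 111.6 and 108.4 in Ws ABA and 132.5, 92.8 and 87.1 in rop10-1 ABA. The lowest mock array thus stood well above the highest ABA array, and array 1 was the highest of the Ws ABA group.

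Pectin enzymes were ATPMEPCRD, a pectin methylesterase gene, and AT4G24780, of the pectate lyase type. ATPMEPCRD had 247.0, 172.2 and 241.2 in Ws mock and 47.9, 51.1 and 39.6 in Ws ABA, a difference of -1.91. In rop10-1 it had 184.4, 91.5 and 218.8 in mock and 76.0, 22.9 and 83.6 with ABA, a difference of -1.28. The rop10-1 groups came within 8 units of each other, at 91.5 in mock and 83.6 with ABA. AT4G24780 had -1.27 and -1.37. On Ws mock arrays AT4G24780 had 846.5, 1027.1 and 892.4 and on rop10-1 mock arrays 674.6, 736.9 and 780.0, against 404.1, 268.8 and 468.1 in Ws ABA and 265.5, 299.6 and 252.2 in rop10-1 ABA. Each rop10-1 mock array lay below each Ws mock array.

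Hemicellulose genes were XTH33, a xyloglucan endotransglucosylase (-1.07 and -1.17), CSLA03, of the glucomannan synthase family (-1.24 and -1.13), and TBL36, of a family of polysaccharide O-acetyltransferases (-1.01 and -1.04). AT4G18340, of the beta-1,3-glucanase type, had -1.15 and -1.39. The signal of AT4G18340 was 820.5, 706.7 and 711.0 in Ws mock, 703.0, 567.3 and 603.2 in rop10-1 mock, 365.2, 270.2 and 351.8 in Ws ABA and 223.6, 226.0 and 233.5 in rop10-1 ABA. Each rop10-1 ABA array lay below each Ws ABA array. AT1G30760, of the berberine bridge enzyme type, had -1.05 and -1.74, and its Ws arrays overlapped, with 230.8, 73.6 and 145.7 in mock and 87.8, 43.9 and 49.3 with ABA. In rop10-1 AT1G30760 had 319.1, 160.3 and 106.5 in mock and 103.2, 40.2 and 12.7 with ABA, and there the groups were apart. For XTH33 the values were 269.0, 475.6 and 575.5 in Ws mock and 561.6, 370.5 and 475.2 in rop10-1 mock, against 167.0, 232.6 and 180.2 in Ws ABA and 301.8, 164.2 and 151.2 in rop10-1 ABA. The XTH33 groups were apart within each genotype, but not when all mock and all ABA arrays were set together. For 8 of the 10 wall genes all 6 ABA arrays lay below all 6 mock arrays, as for 102 of the whole 129 (79.1%) and 3.56% of all tested probe sets.

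Redox enzymes numbered 4. AT4G25090 belongs to the RBOH NADPH oxidases, which make superoxide outside the cell. Its signal was 142.6, 79.7 and 112.9 in Ws mock and 126.2, 117.0 and 109.6 in rop10-1 mock, against 6.7, 12.2 and 12.0 in Ws ABA and 16.7, 19.1 and 5.1 in rop10-1 ABA. Differences were -2.26 and -2.21, with every ABA array under 20. AT4G15680 and AT4G15690 encode glutaredoxins of the plant-specific CC type and are next to each other on the chromosome. AT4G15690 had -1.06 in Ws and -1.97 in rop10-1, the widest gap between genotypes of any named gene, and AT4G15680 had -1.18 and -1.51. MSRB6, a methionine sulfoxide reductase that repairs oxidised proteins, had -1.02 and -1.60, and its Ws arrays overlapped (237.6 at the lowest in mock, 261.1 at the highest with ABA). MSRB6 had 237.6, 494.8 and 854.0 in Ws mock and 208.0, 202.9 and 261.1 in Ws ABA, and 358.5, 615.0 and 608.4 in rop10-1 mock and 142.9, 231.6 and 118.2 in rop10-1 ABA. In rop10-1 the groups were apart.

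Protein and RNA turnover was represented by SBT4.12, a subtilisin-like protease (-1.51 and -1.42), the aspartyl protease genes AT5G48430 (-1.42 and -1.74) and AT5G19120, and AT1G14210, of the ribonuclease T2 family (-1.04 and -1.51). SBT4.12 was even across arrays, with 1467.6 to 2083.6 over the mock and 482.9 to 673.0 over the ABA arrays. The signal of AT1G14210 was 1028.4, 1514.9 and 1864.8 in Ws mock, 1804.3, 1908.7 and 1934.6 in rop10-1 mock, 581.3, 797.2 and 698.2 in Ws ABA and 796.5, 558.3 and 622.1 in rop10-1 ABA. Its mock and ABA arrays did not overlap.

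For nitrogen carried as amides, ASPGB1, an asparaginase that releases ammonium from asparagine, had 454.3, 636.2 and 1744.6 in Ws mock and 553.1, 1292.8 and 1219.0 in rop10-1 mock. With ABA it had 147.7, 200.8 and 370.1 in Ws and 224.5, 201.2 and 248.5 in rop10-1. The mock arrays of both genotypes spread widely, none overlapped with ABA, and the differences were -1.77 and -2.02. GAT1_2.1, of the glutamine amidotransferase type, had -1.34 and -1.01, with an ABA array of rop10-1 (845.9) above the lowest mock array of Ws (708.3).

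Of 3 transporter genes, AT5G14120, of the major facilitator type, had 5399.6, 6651.2 and 9100.3 in Ws mock and 6207.1, 6011.5 and 6764.6 in rop10-1 mock. With ABA it had 2342.1, 1888.9 and 3431.3 in Ws and 1610.7, 1559.4 and 2205.7 in rop10-1. The differences were -1.47 and -1.83, with no overlap. AT1G11670, of the MATE efflux type, had -1.21 and -1.39, and SWEET16, a sugar transporter of the vacuole membrane, -1.14 and -1.33. The Ws arrays of SWEET16 overlapped, at 147.9 in mock and 163.3 with ABA.

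Enzymes of small molecules numbered 7. AT4G15390, of the BAHD acyltransferase type, had 775.7, 575.0 and 919.5 in Ws mock and 177.1, 217.0 and 302.8 in Ws ABA, and 967.6, 1107.6 and 1229.1 in rop10-1 mock and 278.9, 265.6 and 278.7 in rop10-1 ABA. Its differences were -1.64 and -1.94. The signal of UGT85A4 was 347.6, 393.9 and 302.3 in Ws mock, 328.8, 260.4 and 223.2 in rop10-1 mock, 132.6, 93.2 and 125.3 in Ws ABA and 109.6, 98.6 and 79.7 in rop10-1 ABA. This UDP-glycosyltransferase gene had differences of -1.46 and -1.35, without overlap. The alpha/beta hydrolase genes AT1G80280 and AT5G06570 had -1.39 and -1.32 in Ws and -1.26 and -1.18 in rop10-1. AT1G12010, of the ACC oxidase type that makes ethylene, had -1.19 and -1.27. The dioxygenase-type gene AT5G20400 had -1.16 and -1.03, and TRI, a short-chain dehydrogenase named for tropinone reductase, -1.03 and -1.01.

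Receptor-like kinases and related genes were AT1G05700 and AT5G59680, with leucine-rich repeats, and AT3G46270 and AT5G41280. Their differences spanned -1.51 to -1.07 in Ws and -1.22 to -1.099 in rop10-1. On Ws mock arrays AT5G41280 had 205.7, 153.0 and 116.8 and on rop10-1 mock arrays 291.8, 247.3 and 92.3, against 67.9, 91.7 and 43.5 in Ws ABA and 99.5, 71.0 and 58.4 in rop10-1 ABA. Its rop10-1 mock array 3 was below its highest rop10-1 ABA array. The 3 small secreted proteins were AT5G28630, glycine-rich (-1.97 and -1.77), AT2G45180, of the lipid-transfer type (-1.20 and -1.55), and AT3G54040, of the PAR1 type (-1.39 and -1.32). AT2G45180 had 10908.5, 12630.6 and 13913.8 in Ws mock and 4984.0, 5111.5 and 6132.6 in Ws ABA, and 13558.2, 12476.7 and 11577.3 in rop10-1 mock and 6165.1, 3267.2 and 3803.9 in rop10-1 ABA. Its mock and ABA arrays did not overlap. The signal of AT3G54040 was 1415.4, 636.7 and 740.0 in Ws mock, 1148.8, 989.3 and 570.2 in rop10-1 mock, 361.1, 328.1 and 287.9 in Ws ABA and 416.1, 305.1 and 299.8 in rop10-1 ABA. Its mock arrays spread more than its ABA arrays. For AT5G28630 the values were 249.8, 305.5 and 151.1 in Ws mock and 194.7, 265.9 and 194.5 in rop10-1 mock, against 72.1, 67.9 and 16 in Ws ABA and 41.0, 67.5 and 50.4 in rop10-1 ABA. The groups were apart for each of these 3 genes. The neighbouring genes AT1G78450 and AT1G78460, both of the SOUL haem-binding type, had -1.19 and -1.28 in Ws and -1.09 and -1.24 in rop10-1. AT1G78450 had a mean mock signal of 102, close to the minimum of 100, and failed the low-signal filter. Its Ws arrays overlapped, at 43.3 in mock and 63.4 with ABA.

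Of 8 genes with other domains, AT5G60760, of the P-loop nucleoside triphosphatase type, had the lowest difference. Its signal was 95.5, 100.2 and 152.8 in Ws mock and 75, 109.1 and 135.3 in rop10-1 mock, against 5.5, 2.4 and 2.3 in Ws ABA and 2.9, 4.4 and 2.6 in rop10-1 ABA. The pseudocount again makes the differences of -2.75 and -2.64 smaller than the ratio of signals. No ABA array exceeded 5.5, and at signals this low the size of that ratio is uncertain. AT3G01260, of the galactose mutarotase type, had 434.5 to 580.4 over the mock arrays and 99.0 to 168.5 over the ABA arrays (-1.90 and -1.66). The signal of AT3G01260 was 569.2, 434.5 and 480.2 in Ws mock, 580.4, 544.5 and 476.9 in rop10-1 mock, 115.7, 149.4 and 99.0 in Ws ABA and 141.8, 168.5 and 165.0 in rop10-1 ABA. Both sets of arrays were narrow. The other 6 genes were AT1G22330 with an RNA recognition motif, AT5G40590 with a C1 domain, AT1G24530 with WD40 repeats, the vacuole-shape gene AT5G40450, AT2G47560 with a RING domain and AT2G30600 with a BTB domain, all between -1.31 and -1.02 in both genotypes. The rop10-1 arrays of AT2G47560 overlapped, at 100 in mock and 101.1 with ABA.

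For 10 genes no role is given here. AT4G39675 had 1465.0, 959.6 and 1515.3 in Ws mock and 2100.6, 1474.9 and 1630.9 in rop10-1 mock, against 269.9, 303.3 and 289.3 in Ws ABA and 314.6, 266.4 and 267.5 in rop10-1 ABA. The ABA arrays lay within a narrow band of 266.4 to 314.6 although the mock arrays spread from 959.6 to 2100.6, and the differences were -2.10 and -2.54. AT1G66940 showed the same kind of band, 193.4 to 283.4 with ABA against 822.6 to 1528.5 in mock, with differences of -2.15 and -2.39. The signal of AT1G66940 was 822.6, 1528.5 and 1403.7 in Ws mock, 1160.3, 1305.3 and 1191.4 in rop10-1 mock, 278.9, 283.4 and 224.6 in Ws ABA and 280.5, 193.4 and 194.2 in rop10-1 ABA. AT3G06070 had 85.8 to 109.9 with ABA and 177.2 to 731.4 in mock (-1.73 and -2.07). On Ws mock arrays AT3G06070 had 177.2, 408.5 and 731.4 and on rop10-1 mock arrays 362.0, 467.3 and 504.0, against 90.5, 108.9 and 109.9 in Ws ABA and 99.9, 92.8 and 85.8 in rop10-1 ABA. The lowest mock value of AT3G06070 was on Ws array 1. AT5G22555 had -1.99 and -2.34, with its lowest mock array at 43.0 and its highest ABA array at 40.4. The signal of AT5G22555 was 43.0, 96.5 and 194.1 in Ws mock, 144.8, 282.3 and 151.7 in rop10-1 mock, 3.4, 40.4 and 4.5 in Ws ABA and 35.0, 33.7 and 8.7 in rop10-1 ABA. The signal of AT5G66985 was 151.5, 69.5 and 113.1 in Ws mock, 89.3, 63.9 and 230.0 in rop10-1 mock, 34.4, 20.4 and 25.7 in Ws ABA and 11.7, 16.6 and 45.0 in rop10-1 ABA. The differences of this gene were -1.53 and -1.74, and AT1G13670 had 213.7 to 300.8 and 78.7 to 118.8 (-1.29 and -1.32). In these genes the mock and ABA ranges did not overlap. They did overlap for AT1G19530 (-1.53 and -1.51), whose highest ABA array, 660.8 in rop10-1, exceeded 603.6 on a Ws mock array, and for AT2G25735 (-1.11 and -1.06). For AT2G25735 the values were 153.6, 398.0 and 202.5 in Ws mock and 317.0, 545.7 and 363.0 in rop10-1 mock, against 89.5, 163.3 and 64.5 in Ws ABA and 230.6, 125.7 and 207.4 in rop10-1 ABA.

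AT3G22240 had 1777.5, 917.8 and 4571.1 in Ws mock and 637.2, 907.8 and 1210.8 in Ws ABA, and 2398.1, 3008.1 and 3416.8 in rop10-1 mock and 944.6, 814.7 and 1257.9 in rop10-1 ABA. Its Ws mock arrays spread widely and the lowest of them lay below the highest Ws ABA array, while the rop10-1 groups were apart. The differences were -1.13 and -1.54.

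AT5G53240 differed from all of these in how its values spread. On mock arrays numbered 1 its signal was 8.9 in Ws and 11.8 in rop10-1, against 215.3 and 95.1 on the other Ws mock arrays and 201.6 and 217.5 on the other rop10-1 mock arrays. With ABA it was 4.3, 25.9 and 34.7 in Ws and 3.1, 60.8 and 43.4 in rop10-1. The arrays numbered 1 were therefore low in all 4 groups, mock and ABA arrays overlapped in both genotypes, and the mean differences of -1.30 and -1.34 came mainly from numbers 2 and 3. Within number 1 they were -0.29 and -0.54, within number 2 -2.46 and -1.5025, and within number 3 -1.13 and -1.97.

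**Figure D3:**
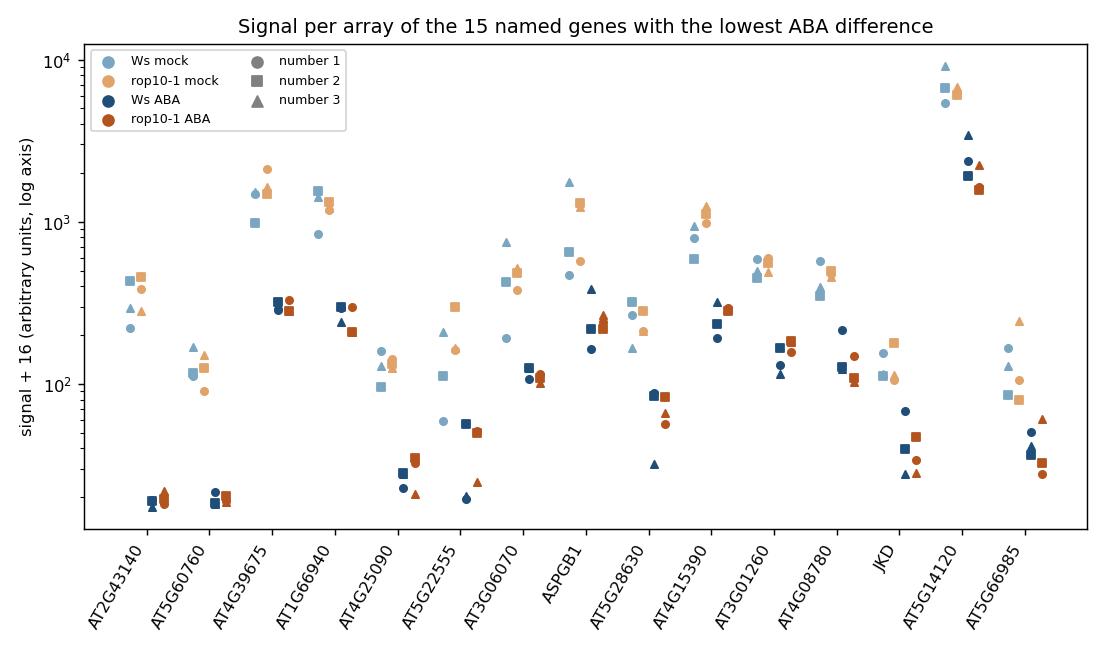
Signal plus 16 in arbitrary units (log axis) on each of the 12 arrays for the 15 named genes with the lowest mean ABA difference; colours mark the 4 groups of 3 arrays and shapes the replicate numbers. In every one of the 15 genes the ABA arrays of a genotype lie below its mock arrays, and AT2G43140 and AT5G60760 lie close to the added 16 on all 6 ABA arrays.

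The 64 probe sets without a listed gene had mean differences of -4.92 to -1.07, with a median of -1.41, beside -1.33 for the 62 named genes. The lowest of them had 424.8, 591.0 and 858.4 in Ws mock and 620.2, 733.4 and 943.1 in rop10-1 mock, and 3.7 to 10.2 on the 6 ABA arrays. Its groups were far apart in both genotypes, and it is unnamed here, not without a gene.

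The ABA differences were set side by side between the genotypes, which the rule bounds at -1 in both. The difference was more negative in rop10-1 for 73 of 129 probe sets (56.6%), and over all tested probe sets for 49.9%. The gap, rop10-1 minus Ws, had a median of -0.06 and ran from -1.04 to 1.44. Among named genes the widest gaps towards a lower rop10-1 value were those of AT4G15690 (-0.91), AT1G30760 (-0.70), MSRB6 (-0.58), AT4G08780 (-0.49) and AT1G14210 (-0.47), and the widest the other way was that of ATPMEPCRD (0.64). AT4G15690 had 163.8, 114.8 and 197.9 in Ws mock and 47.6, 65.7 and 90.1 in Ws ABA, and 214.8, 200.2 and 250.1 in rop10-1 mock and 46.6, 38.7 and 48.3 in rop10-1 ABA. The rop10-1 arrays thus were all higher than the Ws arrays in mock and, but for 1 pair, lower with ABA. These gaps are built from the contrasts of the rule and were not tested.

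The level of the repressed genes in rop10-1 against Ws, averaged over both treatments, was tested. By design this contrast is orthogonal to the ABA contrasts of the rule. It is independent of them only where mock and ABA arrays spread alike, which they did not for genes such as AT4G39675. No member was called by limma at an adjusted p under 0.05 (0 of 117, with 0.0377% of all tested probe sets called). At an unadjusted p under 0.05 there were 19 of 117 (16.2%), against 9.54% of all tested. With the replicate number as a block 4 of 117 were called (3.42%), against 1.43% of all tested. The median genotype difference over the 129 was 0.02, and -0.001 over all tested. It was positive for 66 of 129 (51.2%), and for 49.7% of all tested.

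AT5G40450 was the only named gene called with the block. It had 3835.3, 3235.0 and 2196.7 in Ws mock and 2760.2, 1576.4 and 1765.9 in rop10-1 mock, and 2118.7, 1084.7 and 909.3 in Ws ABA and 1140.3, 958.7 and 798.6 in rop10-1 ABA. At each number and in each treatment the rop10-1 array was the lower, although the groups overlapped. The log2 difference was -0.51 (SE 0.22, limma adjusted p = 0.504, and 0.0493 with the block). The encoded protein is known for its part in the shape of the vacuole membrane.

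The named genes with the smallest p without the block were AT4G18340, AT5G07580, AT4G24780, AT2G25735 and AT4G15390. AT4G18340 was 746 ± 64.5 in Ws mock and 625 ± 70.3 in rop10-1 mock (SD, n = 3 each), and 329 ± 51.4 and 228 ± 5.16 with ABA. Its averaged difference was -0.37 (SE 0.099, limma adjusted p = 0.297, and 0.0501 with the block). AT2G25735 was the largest of the 5, at 0.76 (SE 0.26, limma adjusted p = 0.416, and 0.104 with the block). AT5G07580 had -0.28, AT4G24780 -0.38 and AT4G15390 0.40, with limma adjusted p of 0.377, 0.409 and 0.424. None of these 5 differences passed the threshold in either fit.

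The replicate numbers in the sample titles were another measure outside the contrasts of the rule, since each number occurs once in every group. Of the 117 tested members 30 differed between numbers by limma's F test (25.6%), and 20.0% of all tested probe sets did. The highest number was 1 for 17 of the 30, 2 for 5 and 3 for 8. Over all tested probe sets, called or not, number 1 was highest for 43.1%, number 2 for 29.1% and number 3 for 27.9%. Over the 129 these shares were 41.1%, 24.0% and 34.9%. Without Ws mock array 1 the count of members that differed between numbers was 19 of 117 (16.2%), against 10.9% of all tested.

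The ABA differences within each number are parts of the contrasts the rule used, so their signs were largely fixed by the choice of members and are only described. The difference was negative in all 6 comparisons of same-numbered ABA and mock arrays for 128 of 129 probe sets (17.3% of all tested), and -1 or less in all 6 for 50 (0.327% of all tested).

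**Figure D4:**
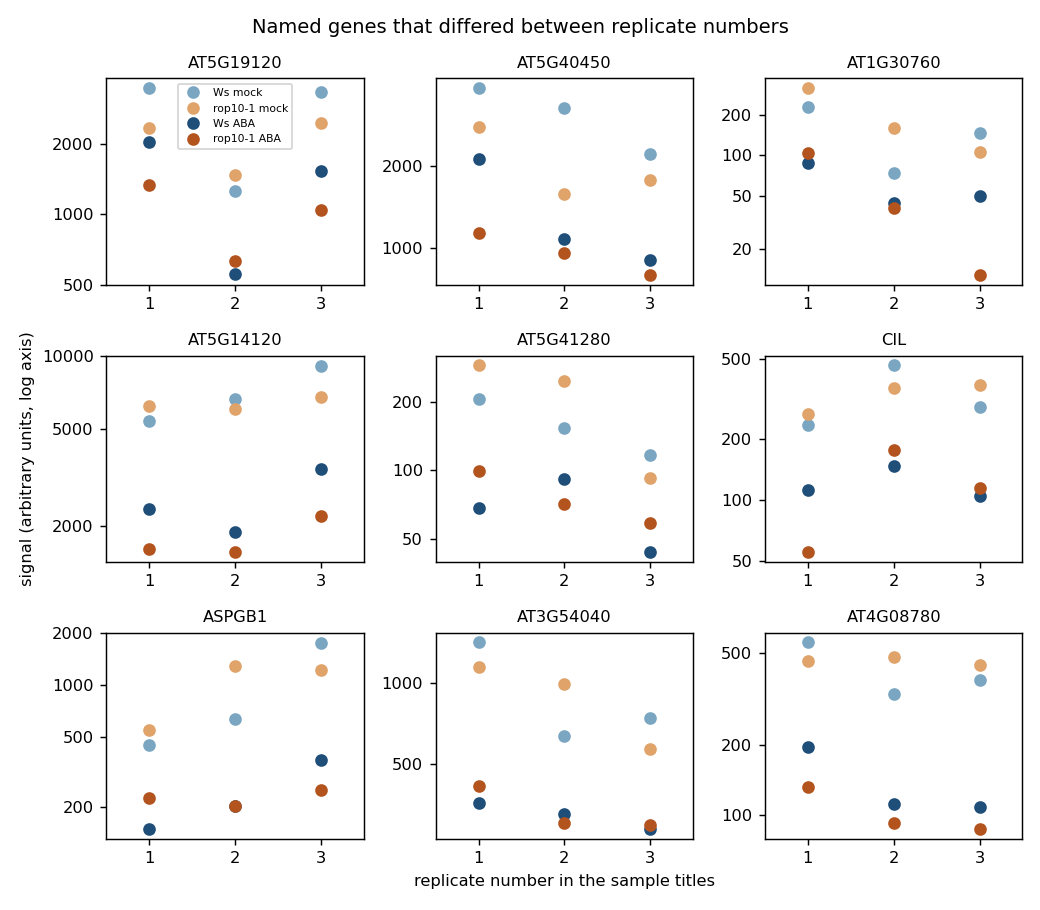
Signal in arbitrary units (log axis) against the replicate number for the 9 named genes that differed between numbers; colours mark the 4 groups and each point is 1 array. AT5G19120 is lowest at number 2 in every group, while ASPGB1 is lowest at number 1 in both mock groups; its ABA points at number 2 coincide.

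Of the 30, 9 are named genes, and they did not share a direction. AT5G19120 was low at number 2, with 1256.0 in Ws mock against 3461.5 and 3309.2 at numbers 1 and 3, and 1472.7 against 2322.9 and 2448.4 in rop10-1 mock. The ABA arrays followed, with 555.2 against 2026.8 and 1529.1 in Ws and 629.2 against 1327.5 and 1045.7 in rop10-1 (limma F adjusted p = 0.00067). For this gene the Ws mock array numbered 2 was lower than the Ws ABA arrays numbered 1 and 3. AT5G40450 (adjusted p = 0.00534), AT1G30760 (0.0107), AT3G54040 (0.0329), AT4G08780 (0.0374) and AT5G41280 (0.0175) were highest at number 1, by deviations of 0.45, 0.75, 0.38, 0.31 and 0.34 from the group means on the log2 scale. AT5G14120 (0.015) and ASPGB1 (0.0232) were highest at number 3, by 0.32 and 0.57, and CIL (0.0222) at number 2, by 0.40.

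Other genes of the same families were counted from lists of symbols and loci, with ABA averaged over both genotypes, where 7.34% of all tested probe sets were called lower and 8.21% higher, the median being -0.05. With the replicate block 15.5% were called lower and 12.5% higher. The lists recognise a gene by its symbol, synonym or listed locus and are incomplete: of the repressed genes named above they recognise XTH33 and UGT85A4, and not, for example, tny, ATPMEPCRD or AT4G08780. Of 20 expansins and xyloglucan enzymes, 4 rose and 6 fell (median -0.09). XTH33 is a member of the repressed set, and a gene left out above also met its limits. EXPB3 (-0.85, SE 0.15, limma adjusted p = 0.00193) and EXPA9 (-0.58, SE 0.0996, limma adjusted p = 0.00183) fell as well. EXPA16 rose by 2.22 (SE 0.115, limma adjusted p = 1.56e-07) and EXPA4 by 1.15 (SE 0.20, limma adjusted p = 0.00205). Within this family decreases and increases thus stood side by side.

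Of 34 UGT glycosyltransferases, 9 rose and 4 fell, with a median of 0.22. UGT85A4 is a member of the repressed set, and a gene left out above also met its limits. UGT71C5, known to glucosylate ABA, fell by 0.56 (SE 0.0866, limma adjusted p = 0.000809). UF3GT, of anthocyanin synthesis, rose by 1.56 (SE 0.14), UGT84A4 by 0.75 (SE 0.14) and UGT76E11 by 0.95 (SE 0.19), at limma adjusted p of 0.00538 or less. Of 23 bZIP, NAC, WRKY and HD-ZIP factors 1 rose, bZIP58 (0.75), and 2 fell, WRKY47 (-0.59) and a gene left out above. The list of MYB and bHLH factors recognised 5 genes, all of them bHLH factors, and not AT2G43140 of the repressed set. Of these 5 bHLH121, known for its part in iron supply, fell (-0.40, SE 0.089). With the replicate block the 3 families came to 14 up and 5 down, 2 up and 4 down, and 0 up and 1 down, and the expansin family to 4 up and 7 down.

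Of 6 class III peroxidases recognised 1 fell, a gene left out above. Of 11 cytochromes P450 CYP71B28 rose (1.01), and of 2 enzymes of the lignin pathway CCR2 rose (1.47). The pectin enzymes ATPMEPCRB (0.60) and PMEPCRF (-0.16), the wall protein HRGP1 (-0.11), the auxin gene IAA18 (0.05) and the type-A response regulator RR16 (-0.10) were not called. With the block the counts became 1 up and 2 down for peroxidases, 3 up and 2 down for cytochromes P450, 2 up for lignin enzymes and 1 up for pectin enzymes. The genes PRP39, AQI and CRK (AT4G01710) matched a list by name alone and belong to other families, so they are not counted here. The 4 reference genes had -0.11 to 0.07.

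The 62 named genes were placed in the gene order of the reference table. Among these 62 only the pairs AT1G78450 with AT1G78460 and AT4G15680 with AT4G15690 were direct neighbours, and no other pair lay within 5 genes. The 11 genes left out by the rule were not considered as partners in these pairs. Cross-hybridisation between such similar neighbours was not tested. The direct neighbours that are not chosen by the rule and have a tested single-gene probe set numbered 42, with a median ABA difference of -0.16, 6 called lower and 3 higher; over all tested probe sets the median was -0.05, with 7.34% called lower and 8.21% higher.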

How the data were processed

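RNA of 12 samples was measured on ATH1 arrays. Per the labels' protocols TRIzol and RNeasy were used, and per the submitters' processing notes GCOS 1.1.1; its settings were not found in the labels. Each deposited value is a linear intensity of a probe set, scaled to a common trimmed mean, and no further normalization was applied. Values were taken as log2(signal + 16). Gene names come from the platform annotation and a RefSeq gene table, which also gave gene order. The members and lists were chosen with earlier results of these data known. Any member with a single gene may be named; of list genes outside the set, up to 4 per list with the smallest p. Values on every array are given for the 15 lowest differences, the 5 highest mock signals, genes at the limit, with the widest genotype gaps, in lists, or called for genotype or number.

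Tests used limma 3.58.1 in R 4.3.3, with eBayes and an intensity trend, 1 mean per group, two-sided, and Benjamini-Hochberg adjustment over 15922 probe sets; an adjusted p under 0.05 was a call. Controls (64) and the 30% with the lowest mean log2 value were left out. The replicate number was tested by a moderated F in a fit with group and number. Same-numbered arrays of different groups deviated together (r = 0.215 to 0.711 in 18 pairs), so the numbers pair the samples. In the 36 other pairs r was -0.475 to 0.11. Deviations from a group's mean cancel within that group, so these 36 are no independent comparison. What the numbers share is not in the labels. Precision is limited by 3 arrays per group. The procedure was tested on simulated data. The simulated noise was independent between arrays, so the tests were not tried under the pairing by number. Alternatives were the pseudocount, normalization, filters, trend, block, limits of the rule and the removal of each array in turn; removing a whole replicate number was chosen after seeing the data. A planned search for promoter motifs was not run.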

Additional observations from a re-analysis of the deposited data

How the results depend on the processing

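With a pseudocount of 64 the rule gave 74 probe sets, all of them among the 129, and medians of -1.13 in Ws and -1.17 in rop10-1; with a pseudocount of 1 the medians were -1.46 and -1.52. A limit of -1.5 gave 36. With the replicate block 4 members and 227 probe sets were called for genotype, in place of 0 and 6. For ABA the block gave 49 genes matched by the lists (among them PRP39, matched by name alone) and 4455 probe sets, in place of 30 and 2475. With the lowest 50% left out 3 probe sets were called for genotype. Leaving out all arrays of number 1 gave a Ws median of -1.42. Leaving out 1 array gave 121 to 135 probe sets by the rule, medians of -1.44 to -1.27 in Ws and -1.47 to -1.35 in rop10-1, and a genotype median of -0.03 to 0.05. It gave 0 members in every case and 6 to 10 probe sets called for genotype, 19 to 32 members and 1733 to 3134 probe sets called for number, and 26 to 32 list genes and 1872 to 2704 probe sets called for ABA. The lowest counts for number came without Ws mock array 1. Genotype differences were followed only for the 5 named members with the smallest p and for AT5G40450. None of the 5 changed its call. AT5G40450 was called only under the block (limma adjusted p = 0.0493), which is what it was picked for. No ABA difference of a named member turned its sign under the settings run for it. The choice of members at -1 or less largely fixed this in advance, so it carries no evidence of its own. Low signal limits the deepest decreases, whose size depends on the pseudocount.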
